A study of Mus musculus with 14 samples.

Results

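The transcripts described here are 10 genes commonly used to mark macrophages: Lyz2, Cd68, C1qa, C1qb, C1qc, Mrc1, Fcgr1, Adgre1, Csf1r and Ly6c2. They were chosen by symbol, with earlier results of these data known. A row was found for 10 of 10 in both deposited tables, each of which lists 24537 gene symbols. RNA was sequenced from regulatory T (Treg) cells sorted from mouse skin 1 day after hair depilation, as 5 GR KO and 3 GR WT libraries. CD34+ITGA6high hair follicle stem cells (HFSC), sorted 4 days after depilation, gave 3 GR KO and 3 GR WT libraries and serve as background. GR KO mice were Foxp3YFP-Cre GRfl/fl, in which the glucocorticoid receptor gene Nr3c1 is deleted by a Cre driven from the Foxp3 locus, and GR WT mice were wild type. The labels do not say whether the wild-type mice carried the Cre. By this design the deletion is aimed at Foxp3-expressing cells, so neither macrophages nor HFSC are its target.

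Macrophages are phagocytes that settle in tissues, where they take up dead cells and microbes, digest them in lysosomes and respond to antibody-coated material through Fc receptors. In skin they lie around the hair follicle, and their numbers and states are known to change over the hair cycle. Most of these genes are not typical of T cells, and Ly6c2 is an exception, since some T cells carry it.

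Values are TPM, an abundance scaled by transcript length and by the size of the library, so levels can be set side by side between genes. The libraries held 9.17 to 14.46 M counted tags in the Treg table and 4.5 to 7.99 M in the HFSC table. Treg libraries carried Foxp3 at 136.9 to 204.5 TPM in GR KO and 159.8 to 281.4 TPM in GR WT, and the T cell receptor subunit Cd3e at 144.8 to 196.8 TPM in GR KO and 134.3 to 182.8 TPM in GR WT. HFSC libraries carried the basal keratin Krt14 at 3740 to 4037 TPM in GR KO and 3920 to 4548 TPM in GR WT, with Foxp3 at most 0.357 TPM in GR KO and 0.121 TPM in GR WT. Nr3c1 in Treg cells averaged 129.5 ± 27.3 TPM in GR KO (SD, n = 5) and 211 ± 35.3 TPM in GR WT (SD, n = 3), and the groups overlapped. The difference of -0.71 on the log2 scale (SE 0.17) did not pass 0.05 (limma adjusted p = 0.0722), although in the GR KO libraries reads from exons outside the deleted part can still be counted. It passed with median ratio scaling (0.0472), with limma voom on recovered tags (0.0166) and without GR KO replicate 4 (0.027).

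In Treg sorts, the macrophage markers had a lower mean in GR KO than in GR WT libraries for 10 of 10 genes, with Lyz2 the most abundant of them. All 10 were above 0 in all 8 Treg libraries, and their TPM summed to 91.1, 83.0, 106, 60.2 and 172 in GR KO replicates 1 to 5, against 344, 198 and 356 in GR WT replicates 1 to 3. The sums did not overlap. Of the 10 genes, 3 fell in GR KO at a limma adjusted p under 0.05 over all genes tested, the mannose receptor Mrc1, the Fc receptor Fcgr1 and the lysozyme Lyz2, where 1.31% of 11579 genes were called lower and 1.51% in either direction. At an unadjusted p under 0.05, 8 of 10 were lower, where 8.93% of all genes were. In 6 of 10 every GR KO library lay below every GR WT library, where 5.1% of all genes did so. The log2 fold change was below 0 in 10 of 10 members and in 55.8% of all genes, with a median of -1.3 over the members and -0.04 over all genes. The members were chosen with earlier results of these data known, so these counts beside the shares of all genes are descriptive. Since these are bulk sorts, fewer macrophages among the sorted cells and less of each RNA per cell cannot be told apart. Leaving out GR WT replicate 1, or GR WT replicate 3, left 0 of 10 members called, and leaving out GR WT replicate 2 left 4.

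**Figure D1:**
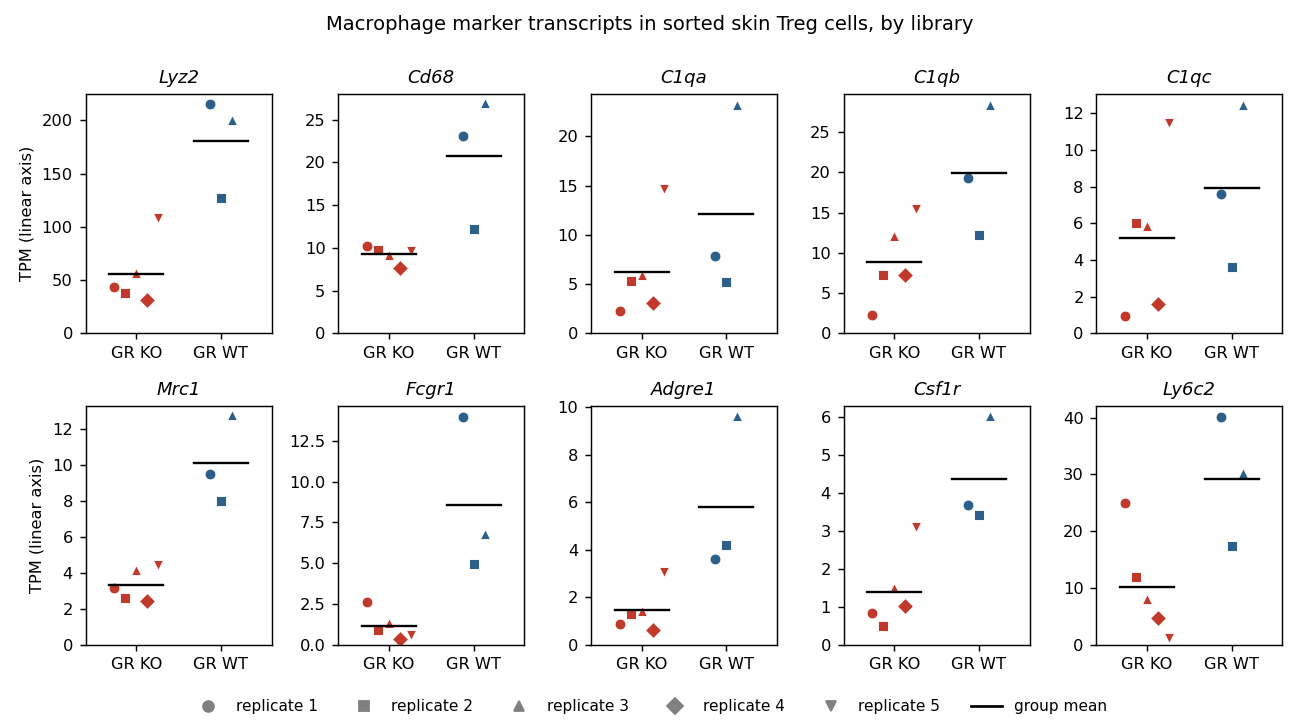
TPM of the 10 macrophage markers in each Treg library, 1 panel a gene on its own linear axis, GR KO (5 libraries) left of GR WT (3 libraries), with a black line at each group mean. Lyz2 runs from 31.5 to 108 TPM in GR KO and from 127 to 215 TPM in GR WT, while C1qa, C1qb, C1qc and Ly6c2 overlap between the groups.

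Lyz2 and Cd68 belong to the digestive side of the phagocyte. Lyz2, lysozyme M, which breaks bacterial cell walls and is made by macrophages, monocytes and neutrophils, had 43.0, 37.6, 56.3, 31.5 and 108 TPM in GR KO replicates 1 to 5, against 215, 127 and 200 TPM in GR WT replicates 1 to 3. The highest GR KO library, replicate 5, still lay below the lowest GR WT library, replicate 2. Its mean was 55.4 ± 31.0 TPM in GR KO (SD, n = 5) and 181 ± 47.2 TPM in GR WT (SD, n = 3), or 30.6% of the GR WT mean, with a log2 fold change of -1.80 (SE 0.34, 95% confidence interval -2.53 to -1.06, limma adjusted p = 0.0224). The call was lost without GR KO replicate 1 (limma adjusted p = 0.0554) or 2 (0.0533), without GR WT replicate 1 (0.0992) or 3 (0.118), with no filter on low values (0.0596) and with a robust prior (0.135). Lyz2 (NM_017372, 4 exons, mm10 chromosome 10, 117277541 to 117282272, minus strand) has a near-identical neighbour, Lyz1, and reads could have been split between them.

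Cd68, a glycoprotein of the lysosome membrane, had 10.2, 9.74, 9.19, 7.67 and 9.66 TPM in GR KO, against 23.1, 12.2 and 27.0 TPM in GR WT. The GR KO libraries were close to one another and all lay below the GR WT libraries, whose lowest was replicate 2. The mean was 9.29 ± 0.976 TPM in GR KO (SD, n = 5) and 20.8 ± 7.66 TPM in GR WT (SD, n = 3). The log2 fold change of -1.02 (SE 0.23, 95% confidence interval -1.52 to -0.52) missed the threshold at a limma adjusted p of 0.0552. It passed without GR WT replicate 2 (0.0072) and with a robust prior (0.0322). Cd68 (NM_001291058, 6 exons) lies on chromosome 11 at 69664213 to 69666170, minus strand.

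Among surface receptors, Mrc1 and Fcgr1 passed the threshold and Adgre1 and Csf1r did not, though none of the 4 overlapped between groups. Mrc1, the mannose receptor CD206 of tissue-resident macrophages, had 3.13, 2.58, 4.13, 2.41 and 4.42 TPM in GR KO, against 9.46, 7.98 and 12.8 TPM in GR WT. Both groups were tight and well apart. The mean was 3.34 ± 0.906 TPM in GR KO (SD, n = 5) and 10.1 ± 2.45 TPM in GR WT (SD, n = 3), with a log2 fold change of -1.35 (SE 0.23, 95% confidence interval -1.87 to -0.84, limma adjusted p = 0.0146). Without GR WT replicate 1 the adjusted p was 0.057, and without replicate 3 it was 0.0836. Mrc1 (NM_008625, 30 exons, chromosome 2, 14229414 to 14332023, plus strand) also contains the microRNA gene Mir511 on the same strand.

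Fcgr1, the high-affinity IgG receptor CD64, had 2.64, 0.915, 1.32, 0.361 and 0.571 TPM in GR KO, against 14.0, 4.94 and 6.78 TPM in GR WT. Replicate 1 was the highest library of both groups, and the groups stayed apart. With a mean of 1.16 ± 0.902 TPM in GR KO (SD, n = 5) and 8.57 ± 4.78 TPM in GR WT (SD, n = 3), or 13.6% of the GR WT mean, it had the lowest ratio of the 10 genes. On the log2 scale the change was -2.12 (SE 0.38, 95% confidence interval -2.96 to -1.28, limma adjusted p = 0.0196). It rested on 130 tags summed over 5 GR KO libraries and 544 over 3 GR WT libraries. The call was lost without GR WT replicate 1 (limma adjusted p = 0.0873) or 3 (0.0685) and under quantile scaling (0.0537). Fcgr1 (NM_010186, 6 exons) lies on chromosome 3 at 96282909 to 96293969, minus strand.

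Adgre1, which encodes the F4/80 antigen by which mouse macrophages are often gated, had 0.868, 1.3, 1.41, 0.607 and 3.06 TPM in GR KO, against 3.59, 4.19 and 9.61 TPM in GR WT. Here GR KO replicate 5 came near the lowest GR WT library without reaching it. Its difference was -1.44 on the log2 scale (SE 0.37, 95% confidence interval -2.25 to -0.64, limma adjusted p = 0.0968). Csf1r, the receptor for the growth factors CSF1 and IL-34 on which macrophages depend, had 0.82, 0.477, 1.48, 1.02 and 3.08 TPM in GR KO, against 3.68, 3.41 and 6.02 TPM in GR WT. Its pattern was like that of Adgre1, with replicate 5 the highest GR KO library and replicate 3 the highest GR WT library. The estimate, -1.24 on the log2 scale, did not pass either (SE 0.35, 95% confidence interval -2.0 to -0.48, limma adjusted p = 0.138). On recovered tag counts with limma voom, an alternative added after seeing the data, both passed, Adgre1 at an adjusted p of 0.0226 and Csf1r at 0.0309. Adgre1 (NM_010130, 22 exons) lies on chromosome 17 at 57358686 to 57483529, plus strand.

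The bases before the start sites of the 3 genes that passed the threshold are shown because PU.1, the transcription factor that sets up myeloid cells, and the glucocorticoid receptor itself each bind a known core motif. The 250 bases upstream are from RefSeq on build GRCm38.p6, at chr10:117282273-117282522 (minus strand) for Lyz2, chr2:14229164-14229413 (plus strand) for Mrc1 and chr3:96293970-96294219 (minus strand) for Fcgr1, printed 5′ to 3′ on the gene's strand. Capitals mark the PU.1 core GAGGAA, which reads TTCCTC on the other strand, and in Lyz2 the glucocorticoid response element core ACANNNTGT. 
Lyz2: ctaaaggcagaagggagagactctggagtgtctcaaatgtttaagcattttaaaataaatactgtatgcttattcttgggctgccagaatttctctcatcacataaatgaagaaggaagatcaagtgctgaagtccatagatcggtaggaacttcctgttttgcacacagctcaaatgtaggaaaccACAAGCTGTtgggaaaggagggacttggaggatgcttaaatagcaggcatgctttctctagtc
Mrc1: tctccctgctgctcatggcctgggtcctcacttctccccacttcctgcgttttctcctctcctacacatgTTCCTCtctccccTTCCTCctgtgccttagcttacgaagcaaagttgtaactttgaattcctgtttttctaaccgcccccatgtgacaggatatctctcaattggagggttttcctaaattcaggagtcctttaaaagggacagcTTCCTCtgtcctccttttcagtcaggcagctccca
Fcgr1: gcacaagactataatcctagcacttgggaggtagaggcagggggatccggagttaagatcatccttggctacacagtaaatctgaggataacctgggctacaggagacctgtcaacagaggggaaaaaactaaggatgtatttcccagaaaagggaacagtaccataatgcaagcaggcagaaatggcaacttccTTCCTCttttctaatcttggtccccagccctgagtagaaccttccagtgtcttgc
Of the 10 members 7 had an entry in the promoter table, and 6 of those 7 held GAGGAA on either strand within 250 bases, against 23.3% of 32851 mouse promoters of the same length. Mrc1 held it 3 times, ending 175, 162 and 30 bases before the start, and Fcgr1 once at 50 bases. Outside the called genes, the nearest match was 220 bases before the start in Cd68, 25 in C1qb and 188 in C1qc. The RefSeq start lies 23 bases outside the C1qb transcript that the files name and 12 bases inside the Ly6c2 one, so no distance is given for Ly6c2, which also held the motif. ACANNNTGT was found in 1 of the 7, Lyz2, 55 bases before the start, against 5.84% of promoters. No promoter of the 7 held both, so matches did not overlap. A match of letters is a description and was not tested as a binding site.

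The C1q genes encode the A, B and C chains of C1q, the molecule that starts the classical complement pathway, and macrophages are a main source of it. They lie side by side on chromosome 4 within 18700 bases, on the minus strand, with C1qb (NM_009777) at 136880145 to 136886177, C1qc (NM_007574) at 136889802 to 136892914 and C1qa (NM_007572) at 136895916 to 136898844, each with 3 exons. C1qa had 2.26, 5.36, 5.92, 3.11 and 14.6 TPM in GR KO, against 7.80, 5.21 and 23.2 TPM in GR WT. The groups overlapped, with GR KO replicates 2, 3 and 5 above the lowest GR WT library and replicate 5 above 2 of the 3. C1qb had 2.30, 7.20, 12.1, 7.23 and 15.4 TPM in GR KO, against 19.3, 12.2 and 28.4 TPM in GR WT. Here replicate 5 was the only GR KO library above the lowest GR WT library. C1qc had 0.927, 6.0, 5.86, 1.6 and 11.5 TPM in GR KO, against 7.62, 3.64 and 12.5 TPM in GR WT. Here 3 GR KO libraries, replicates 2, 3 and 5, lay above the lowest GR WT library.

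None of the 3 C1q genes passed the test. C1qa stood at a log2 fold change of -0.82 (SE 0.52, 95% confidence interval -1.96 to 0.32, limma adjusted p = 0.513). C1qb stood at -1.20 (SE 0.45, 95% confidence interval -2.19 to -0.22, limma adjusted p = 0.266) and C1qc at -0.71 (SE 0.57, 95% confidence interval -1.97 to 0.54, limma adjusted p = 0.616). Those intervals are wide and take in both no difference, for C1qa and C1qc, and the size of change seen for Mrc1. In TPM C1qb was above C1qa in all 8 libraries, though in GR KO replicate 1 both had 20 tags. The share of C1qb in the summed C1q TPM was 37.1% to 60.5% in GR KO and 44.3% to 57.9% in GR WT.

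Ly6c2, a surface antigen of inflammatory monocytes that some T cells also carry, was the member with the most uneven GR KO libraries. It had 24.9, 11.9, 8.02, 4.69 and 1.16 TPM in GR KO, against 40.2, 17.3 and 30.2 TPM in GR WT. GR KO replicate 1 lay above GR WT replicate 2, and the other 4 GR KO libraries were below all 3 GR WT libraries. The mean was 10.1 ± 9.17 TPM in GR KO (SD, n = 5) and 29.2 ± 11.5 TPM in GR WT (SD, n = 3), with a log2 fold change of -1.81 (SE 0.63, 95% confidence interval -3.19 to -0.42, limma adjusted p = 0.233). Ly6c2 (NM_001099217, 4 exons, chromosome 15, 75108161 to 75111949, minus strand) is nearly identical to Ly6c1, so reads may have been split between them. Ly6c1 averaged 20.5 ± 6.68 TPM in GR KO (SD, n = 5) and 47.4 ± 15.0 TPM in GR WT (SD, n = 3), with a log2 fold change of -1.18 (limma adjusted p = 0.0575).

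**Figure D2:**
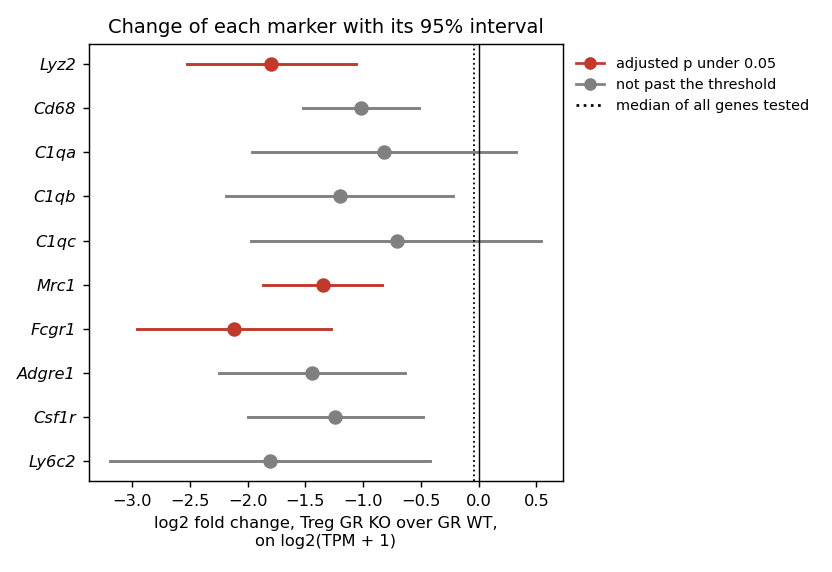
Log2 fold change of GR KO over GR WT in Treg cells for each marker, with its 95% confidence interval from limma on log2(TPM + 1) with genes past the threshold in red and a dotted line at the median of all genes. All 10 estimates lie below 0, and the intervals of C1qa and C1qc cross 0.

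By mean level the order in both groups began with Lyz2, followed by Ly6c2, Cd68, C1qb and C1qa. Between neighbours in that order, Lyz2 and Ly6c2 were the only pair whose libraries did not overlap, in GR KO as in GR WT. Lyz2 alone made up 45.2% to 63.1% of the summed marker TPM in GR KO libraries and 56.1% to 64.1% in GR WT libraries. Below C1qa the order differed between the groups, and neighbouring genes overlapped.

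The markers did not rank the GR KO libraries alike. Replicate 5 was the highest GR KO library for 7 of 10 members, Lyz2, C1qa, C1qb, C1qc, Mrc1, Adgre1 and Csf1r, and the lowest for Ly6c2. Replicate 1 was the highest for Cd68, Fcgr1 and Ly6c2 and the lowest for all 3 C1q genes. The summed C1q level over Ly6c2, which monocytes and some T cells carry, was 0.22, 1.56, 2.97, 2.55 and 35.9 in GR KO replicates 1 to 5, against 0.863, 1.21 and 2.12 in GR WT replicates 1 to 3. The GR KO libraries thus spread on both sides of the GR WT libraries in that ratio, but its extremes rested on few tags. In GR KO replicate 5 Ly6c2 had 10 tags, and in replicate 1 C1qa, C1qb and C1qc had 20, 20 and 8. Among GR WT libraries, replicate 2 was the lowest for 9 of 10 members and replicate 3 the highest for 7.

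**Figure D3:**
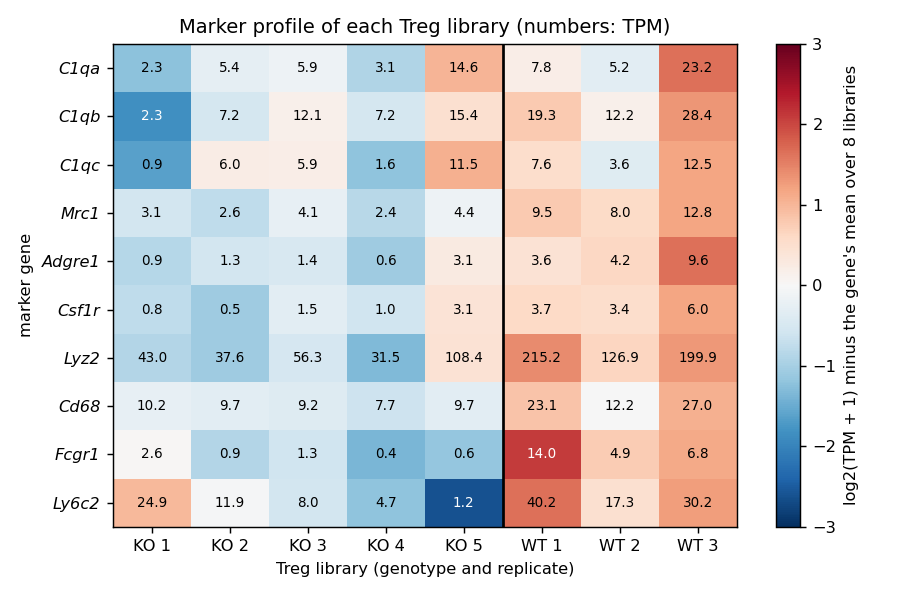
Each marker's log2(TPM + 1) in each Treg library relative to that gene's mean over the 8 libraries, with TPM written in each cell, GR KO replicates left of GR WT replicates. Replicate 5 stands highest among GR KO libraries for 7 of 10 members, and Ly6c2 runs against the C1q genes there.

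Each member was compared with the mean profile of the 10 over the 8 libraries, by the root mean square difference in log2 units. Mrc1 followed it most closely at 0.16, then Cd68 at 0.27 and Adgre1 at 0.28, and Ly6c2 was farthest at 1.13. The median of 10712 genes outside the members was 0.77. Each member is part of the mean profile, so some of its closeness is built in. Outside the members, the 8 genes most like the mean profile were Gstm5 and C3ar1 at 0.20, Trem1 at 0.23, Lhpp at 0.24, Cfp and Nlrp3 at 0.25, and Tyrobp and Blvrb at 0.26. C3ar1, a receptor for the complement fragment C3a, ran from 0.13 to 1.07 TPM in GR KO and from 1.96 to 4.68 TPM in GR WT. Nlrp3, the sensor of an inflammasome, ran from 0.131 to 1.28 TPM in GR KO and from 2.38 to 4.49 TPM in GR WT. Blvrb, a biliverdin reductase, ran from 6.51 to 9.98 TPM in GR KO and from 16.2 to 20.4 TPM in GR WT. These genes were picked for this pattern, so their difference between groups is a description without a test.

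The genes that work beside the markers were taken from lists, chosen with earlier results of these data known. Over all 11579 genes, 1.31% were called lower, and in 5.1% every GR KO library lay below every GR WT library. Among Fc receptors and their signalling partners, 4 of 6 tested genes fell in GR KO, with a list median log2 fold change of -1.55. Fcgr2b, the inhibitory IgG receptor, had 5.40, 4.79, 3.83, 4.67 and 6.86 TPM in GR KO, against 16.3, 16.0 and 21.1 TPM in GR WT, a change of -1.63 on the log2 scale (SE 0.19, limma adjusted p = 0.00242). The groups were well apart, and its call held in all 17 alternatives. Tyrobp (DAP12), an adaptor of myeloid receptors, averaged 18.2 ± 5.69 TPM in GR KO (SD, n = 5) and 48.4 ± 11.5 TPM in GR WT (SD, n = 3), at -1.39 (limma adjusted p = 0.0211). Fcgr3, a low-affinity IgG receptor, averaged 3.77 ± 2.37 TPM in GR KO (SD, n = 5) and 17.97 ± 4.21 TPM in GR WT (SD, n = 3), at -2.14 (limma adjusted p = 0.0228). Fcer1g, the signalling chain that Fcgr1 and Fcgr3 share, averaged 19.3 ± 7.39 TPM in GR KO (SD, n = 5) and 65.3 ± 29.0 TPM in GR WT (SD, n = 3), at -1.67 (limma adjusted p = 0.0371). These last 3 did not hold without GR WT replicate 1 or 3, with adjusted p values of 0.0841 to 0.177. Tyrobp was also lost without GR KO replicate 2 (0.0511), Fcgr3 without replicate 3 (0.0514) and Fcer1g without replicate 1 (0.0748), 2 (0.0621), 4 (0.0766) or 5 (0.0543). All 3 were lost with no filter on low values (0.0505 to 0.0757). Tyrobp was lost under quantile scaling (0.0514), Fcgr3 with a pseudocount of 0.1 TPM (0.052), and Fcer1g under quantile scaling (0.0604), median ratio scaling (0.0562) and a robust prior (0.133). In this list, 1 of 6 genes remained called without GR WT replicate 1 or 3, Fcgr2b.

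Of the complement partners and receptors, 1 of 10 tested genes fell, where 1.31% of all genes were called lower. In this list 10 of 10 were below 0, against 55.8% of all genes, with a median of -0.94. The called gene was Itgam, the CD11b chain of complement receptor 3, at 0.784, 0.734, 0.808, 0.942 and 2.10 TPM in GR KO, against 5.6, 3.84 and 6.85 TPM in GR WT. Replicate 5 stood above the other GR KO libraries and below all GR WT libraries. Itgam stood at -1.64 on the log2 scale (SE 0.29; limma adjusted p = 0.0164), with adjusted p values of 0.0752 without GR WT replicate 1 and 0.0873 without replicate 3. Without GR WT replicate 2, 3 of 10 passed, C3ar1 and the properdin gene Cfp beside Itgam. Its partner chain Itgb2, which T cells also use, averaged 170 ± 11.7 TPM in GR KO (SD, n = 5) and 173 ± 24.8 TPM in GR WT (SD, n = 3).

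No gene passed among the CSF1 receptor ligands and lineage factors (0 of 7 tested, median -0.46), the scavenger and phagocytic receptors (0 of 7, median -0.09) or the lysosomal proteins (0 of 12, median -0.25). Spi1, which encodes PU.1, averaged 1.67 ± 0.608 TPM in GR KO (SD, n = 5) and 3.24 ± 1.18 TPM in GR WT (SD, n = 3), at a log2 fold change of -0.66 (limma adjusted p = 0.353). Csf1 averaged 9.25 ± 3.16 TPM in GR KO (SD, n = 5) and 12.3 ± 1.83 TPM in GR WT (SD, n = 3), at -0.42 (limma adjusted p = 0.446). The scavenger receptor Msr1 averaged 1.09 ± 0.966 TPM in GR KO (SD, n = 5) and 7.37 ± 4.29 TPM in GR WT (SD, n = 3), without overlap, at -1.97 (limma adjusted p = 0.0943). Without GR WT replicate 2 Msr1 passed, at 0.0311. The scavenger and phagocytic list had 5 of 7 tested genes below 0, against 55.8% of all genes. Cd36 and Clec10a stood at log2 fold changes of -0.95 and -0.33 (limma adjusted p = 0.578 and 0.782). Folr2 and Axl went the other way, at 0.51 and 0.05 (limma adjusted p = 0.766 and 0.936). Folr2 rested on 80 tags summed over 5 GR KO libraries and 18 over 3 GR WT libraries. Havcr2 and Lyve1 stood at -0.04 and -0.09 (limma adjusted p = 0.92 and 0.971). Axl and Havcr2 averaged 17.8 and 56.2 TPM in GR KO and 17.5 and 57.8 TPM in GR WT. Vsig4 was listed at 0 in all 8 libraries. Siglec1 was listed at 0 in all 5 GR KO libraries, against 0.216, 0.26 and 0.786 TPM in GR WT. The cysteine proteases Ctsb and Ctss, which T cells and other cells also make, stood at log2 fold changes of -0.33 and -0.27 (limma adjusted p = 0.214 and 0.361).

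Monocyte markers fell in 3 of 10 tested genes, where 1.31% of all genes were called lower. In 8 of 10 every GR KO library lay below every GR WT library, against 5.1% of all genes. The median log2 fold change was -1.44. Chil3, a chitinase-like protein of inflammatory monocytes, had 1.59, 1.03, 0, 0 and 1.33 TPM in GR KO, against 9.39, 15.4 and 9.89 TPM in GR WT, at -2.90 (SE 0.38, limma adjusted p = 0.00326). Its call was lost with a pseudocount of 0.1 TPM (0.0637). Cd14, the coreceptor for bacterial lipopolysaccharide, averaged 10.3 ± 4.99 TPM in GR KO (SD, n = 5) and 37.2 ± 9.49 TPM in GR WT (SD, n = 3), at -1.82 (limma adjusted p = 0.0133). Ms4a6c averaged 10.7 ± 4.12 TPM in GR KO (SD, n = 5) and 30.6 ± 5.80 TPM in GR WT (SD, n = 3), at -1.48 (limma adjusted p = 0.0141). Both were lost without GR WT replicate 1 (0.0644 for Cd14 and 0.0752 for Ms4a6c), and Cd14 also without replicate 3 (0.0751). Without GR KO replicate 1, 5 of 10 monocyte markers passed. Ccr2, the chemokine receptor of monocytes that skin Treg cells also carry, did not share this pattern, at 642 to 1026 TPM in GR KO and 651 to 729 TPM in GR WT (log2 fold change 0.20, limma adjusted p = 0.568).

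Markers of other cell types of skin moved with the same comparison, and their part in the macrophage marker difference was not tested. The 10 basal keratinocyte markers summed to 21.9 to 117 TPM in GR KO and 401 to 680 TPM in GR WT. Of 9 tested 7 fell, where 1.31% of all genes were called lower, with a median log2 fold change of -3.11. The count was 4 without GR WT replicate 1 or GR KO replicate 5, 3 of 8 tested without GR WT replicate 3, and 5 to 7 without any other single library. Krt15, a keratin of basal and bulge cells, had 3.77, 1.38, 20.2, 3.59 and 4.84 TPM in GR KO, against 122, 126 and 243 TPM in GR WT. Its groups were far apart, at -4.76 (SE 0.55, limma adjusted p = 0.00214). The 13 neutrophil markers summed to 9.32 to 45.7 TPM in GR KO and 88.0 to 345 TPM in GR WT. Of 6 tested, S100a8 and S100a9 fell (log2 fold change -4.74 and -4.91, limma adjusted p = 0.0109 and 0.0212). The other tested genes, none of them called, had log2 fold changes from -1.17 to -0.12. S100a8 and S100a9 averaged 73.7 and 131 TPM in GR WT, so they made up most of the list sums there. The 2 were lost without GR WT replicate 1 (0.0644 and 0.0958) or 3 (0.0596 and 0.111), with a pseudocount of 0.1 TPM (0.0543 and 0.112) and with a robust prior (0.104 and 0.152), and S100a9 with no filter (0.0599). The neutrophil granule genes Elane and Ngp were listed at 0 in all 8 libraries. The 9 fibroblast markers summed to 44.6 to 153 TPM in GR KO and 139 to 350 TPM in GR WT, with 0 of 9 called and a median of -1.0.

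The 10 hair follicle stem cell markers, which share Krt15 with the keratinocyte list, summed to 45.2 to 68.7 TPM in GR KO and 246 to 380.4 TPM in GR WT. Of 6 tested 3 fell, where 1.31% of all genes were called lower. They were Krt15, Postn (log2 fold change -3.21, limma adjusted p = 0.00242) and Cd34 (-2.11, limma adjusted p = 0.0467). Postn was called in all 17 alternatives, while Cd34 was lost in 13 of 17, with an adjusted p of up to 0.165 without GR WT replicate 3.

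Among the remaining lists, 1 called gene was found. The dendritic and Langerhans cell markers summed to 913 to 1193 TPM in GR KO and 996 to 1470.0 TPM in GR WT, with 0 of 9 tested genes called and a median of -0.19. Itgae and Cd74 made up most of these sums, averaging 454 and 298 TPM in GR KO and 409 and 343 TPM in GR WT. Cd207, Flt3 and Clec9a of the same list each averaged under 1 TPM in both groups. Endothelial markers had 0 of 5 called and a median of -0.86. Mast cell (4 of 7 genes listed at 0 in all 8 libraries), B cell and melanocyte markers left 1 tested gene each, and natural killer cell markers 2, and 0 of these were called. T cell and Treg markers summed to 10219 to 14011 TPM in GR KO and 12325 to 13749 TPM in GR WT, with a median of -0.09. Of 11 tested 1 fell, the IL-2 receptor chain Il2ra (log2 fold change -0.55, limma adjusted p = 0.00575), where 1.31% of all genes were called lower.

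**Figure D4:**
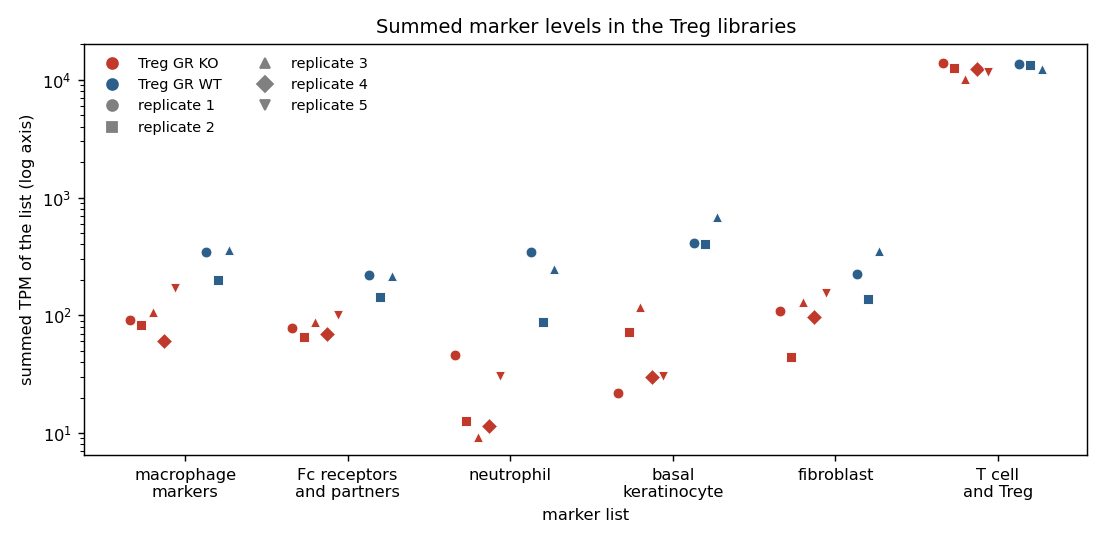
Summed TPM of 6 marker lists in each Treg library on a log axis, GR KO left of GR WT. The macrophage markers, the Fc receptors, the neutrophil and the basal keratinocyte lists do not overlap between groups, and the T cell and Treg list does. In GR WT the neutrophil sums are mostly S100a8 and S100a9.

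In HFSC, used as the background population, most of the markers were at or near 0. The leukocyte antigen Ptprc (CD45) stood at 0.16 to 0.44 TPM in GR KO and 0 to 0.395 TPM in GR WT. Members above 0 numbered 1, 5 and 4 of 10 in GR KO replicates 1 to 3, against 6, 8 and 1 of 10 in GR WT replicates 1 to 3. Of the 10 members 3 reached a mean of 1 TPM and were tested, and limma called 0 of them, with 0 at an unadjusted p under 0.05 and 0 with limma voom, where 0.176% of 12493 genes were called in either direction and 16.6% had an unadjusted p under 0.05. A floor of 3 tags corresponds to 0.616 to 1.03 TPM for a transcript of 1000 bases, so differences between levels under about that size were not detectable at this depth.

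Cd68 was the member found in all 6 HFSC libraries, at 4.93, 4.48 and 2.70 TPM in GR KO, against 4.71, 4.92 and 2.19 TPM in GR WT. The groups lay on top of each other. The log2 fold change was 0.05 (SE 0.33, 95% confidence interval -0.70 to 0.81, limma adjusted p = 0.957). Lyz2 had 0, 0.391 and 0.849 TPM in GR KO, against 6.54, 3.39 and 0 TPM in GR WT, with a log2 fold change of -1.23 (SE 0.71, 95% confidence interval -2.86 to 0.40, limma adjusted p = 0.431). GR WT replicates 1 and 2 were above the GR KO libraries and replicate 3 was at 0. C1qb had 0, 0 and 2.11 TPM in GR KO, against 5.85, 0.962 and 0 TPM in GR WT, with a log2 fold change of -0.70 (SE 0.77, 95% confidence interval -2.46 to 1.05, limma adjusted p = 0.687). Both rested on few tags, 6 in GR KO and 34 in GR WT for Lyz2, and 10 in GR KO and 22 in GR WT for C1qb.

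The other 7 members were too low for the fit, and Ly6c2 was listed at 0 in all 6 HFSC libraries. For the remaining 6, an exact two-sided permutation test of 3 against 3 libraries, whose smallest possible p is 0.1, gave p from 0.4 to 1. Csf1r, a chromosome 18 gene, had 0, 0.053 and 0 TPM in GR KO, against 1.78, 0.924 and 0 TPM in GR WT. C1qa had 0, 0.381 and 1.24 TPM in GR KO, against 1.28, 2.36 and 0 TPM in GR WT. In both, GR WT replicate 3 was at 0, as were most GR KO libraries for Csf1r. C1qc was listed at 0 in the 3 GR KO libraries and reached 0.969 TPM in GR WT, and Mrc1, Fcgr1 and Adgre1 were each above 0 in 1 library of 6, at 0.318 TPM or less.

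**Figure D5:**
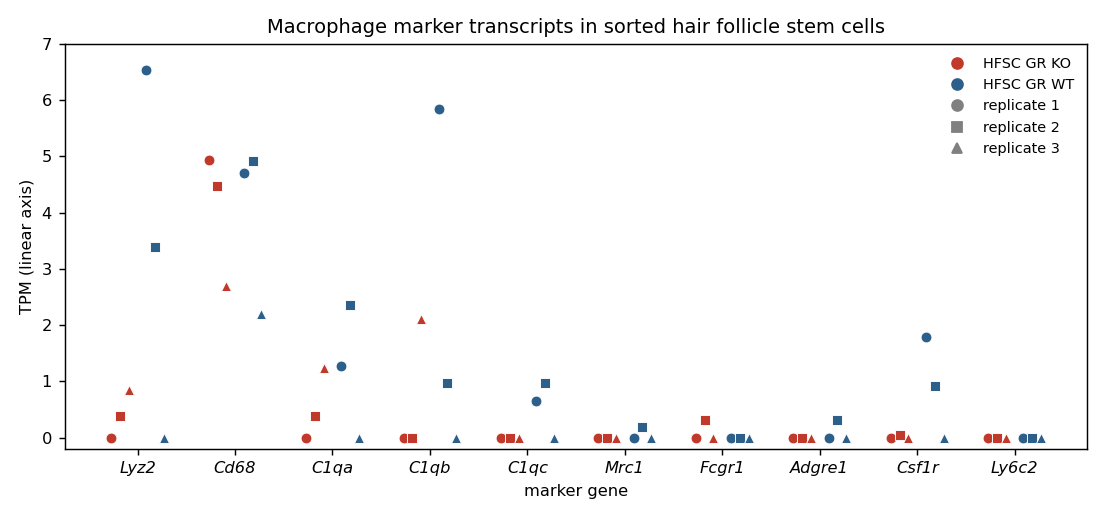
TPM (linear axis) of the 10 markers in each HFSC library, GR KO (3 libraries) left of GR WT (3 libraries). Cd68 lies between 2.70 and 4.93 TPM in GR KO and between 2.19 and 4.92 TPM in GR WT, and Ly6c2 is at 0 throughout.

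Set beside the Treg table, which was made separately, so that levels across the tables are descriptive, 6 of the 10 members were higher in every Treg library than in every HFSC library: Lyz2, Cd68, Mrc1, Fcgr1, Adgre1 and Ly6c2. Lyz2 averaged 102 TPM over the 8 Treg libraries and 1.86 TPM over the 6 HFSC libraries. The 3 C1q genes and Csf1r overlapped between the tables, since their lowest Treg libraries, all GR KO, stood at or below the highest HFSC libraries.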

How the data were processed

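Treg cells (5 GR KO, 3 GR WT libraries) and HFSC (3 and 3) were sequenced from sorted mouse skin cells, with groups and replicate numbers taken from the sample titles. Whether replicates come from different mice is not in the labels, so a p-value here measures sample-to-sample spread, part of which may be technical. Reads had passed through STAR, HOMER, Trim Galore and FastQC on build mm10, per the submitters' processing notes. Their versions, and the strand setting used in counting, are not given in the sources used. The authors deposited TPM per gene and library in 1 table per cell type, and per the file headers each row names 1 RefSeq transcript. Each table was tested on its own, since they were normalized separately. A library's deposited TPM added up to between 649917 and 668742 in Treg and between 639752 and 645251 in HFSC. Multiplied by length, 100% of the low TPM values came out as whole tags (tolerance 0.1 tag). Tag counts up to 100 were even in 74.6% to 83.1% of cases, so read pairs seem to have been counted as 2 tags, and tags are not independent molecules. Floors of 3 tags (0.276 to 0.413 TPM in Treg for 1000 bases) cover counting error only. The HFSC headers begin with letters of unknown meaning, and genotype and number tied them to samples.

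The test was limma (3.58.1, R 4.3.3) with a trend on log2(TPM + 1) for genes averaging 1 TPM or more, two-sided, with Benjamini-Hochberg p-values over all genes tested and a threshold of 0.05. Fold changes are GR KO over GR WT and, with this pseudocount, too small for low genes. The fit was checked on simulated tags that varied less between libraries than members such as Lyz2, Fcgr1 and Ly6c2 did. Its behaviour at their spread was not checked. HFSC members under the filter were tested by exact permutation. Named genes are the members, the genes most like their mean profile, per list up to 4 genes with the smallest p, relatives of members, and Nr3c1, Foxp3, Cd3e, Ptprc, Krt14 and Cd34 as checks of the labels. Genes named beyond that were chosen after their values were seen. They are Itgb2, Ccr2, Vsig4, Siglec1, Elane, Ngp, Itgae, Cd74, Cd207, Flt3, Clec9a, Axl, Havcr2 and Lyve1. The members and lists were chosen with earlier results of these data known. Alternatives covered the pseudocount, the filter, scaling, the prior, a replicate block, leaving out each library, and voom. Promoters are from RefSeq tables, where 7 members had an entry, and the motif search used Python 3.11.15.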

Additional observations from a re-analysis of the deposited data

Results flagged for a closer look

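In the Treg GR KO group of 5 libraries, 60 genes, the members and the genes picked for naming by rule or because the text names them, were checked for a library far from the others, with a gap over the whole range above 0.71. Chance flags about 1 group in 20. Of the 60 genes 6 were flagged, and 0 of the 10 macrophage markers. Replicate 5 stood apart for 3 myeloid genes, Itgam at 2.10 TPM (next highest GR KO library 0.942), C5ar1 at 1.86 TPM (next 0.741) and Lyz1 at 9.51 TPM (next 2.17). Without replicate 5 the limma adjusted p of Lyz1 was 0.0222, against 0.269 with it. Replicate 5 was flagged on these same Lyz1 values, so the fit without it is no separate test of Lyz1. Replicate 1 stood apart for Lcn2, a neutrophil and keratinocyte product, at 16.8 TPM (next 4.97). Replicate 3 stood apart for the keratin Krt15 at 20.2 TPM (next 4.84), and replicate 4 for the cytokine Csf1 at 14.7 TPM (next 8.74).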

How the results depend on the processing

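The number of macrophage markers called in Treg cells was 3, and it ranged from 0 to 4 when 1 library was left out, was 1 with a replicate block (Lyz2) and 5 with limma voom on recovered tags, which was added after seeing the data. All 10 stayed below 0 in every alternative in which they were tested. Over all Treg genes 175 were called, against 78 with a replicate block, 270 with voom and 84 to 186 when 1 library was left out. In the Treg block fit, GR KO replicates 4 and 5 have no GR WT library of the same number. They add nothing to its genotype estimate, which rests on replicates 1 to 3 of each group. Over all HFSC genes 22 were called, against 2 with no filter, 48 at a mean of at least 5 TPM, 69 with median ratio scaling, 58 with quantile scaling, 51 with a robust prior, 66 with a replicate block, 520 with voom and 0 to 5 when 1 library was left out. The cause was not tested. With the block the called list genes Fcgr3, Itgam, Ms4a6c, Il2ra, Krt5, Krt14 and Cd34 did not pass (adjusted p 0.0767 to 0.144), and Nr3c1 and Ly6c1 did (both 0.0406). Signs turned in 4 uncalled results: Itgb2 in Treg with median ratio scaling (0.03), voom (0.05), and without GR KO replicate 4 (0.01) or GR WT replicate 3 (0.08, leave-one-out range from -0.13), Cd3e in Treg without GR WT replicate 1 (-0.03, leave-one-out range to 0.19), Cd68 in HFSC without GR KO replicate 1 (-0.08) or 2 (-0.02) or GR WT replicate 3 (-0.24, range to 0.26), and Nr3c1 in HFSC without GR KO replicate 1 (-0.01) or GR WT replicate 3 (-0.05, range to 0.2). The labels do not say whether replicate numbers pair the samples. Same-number correlations were 0.17, 0.087 and -0.117 in Treg, and 0.016, 0.062 and -0.042 in HFSC. With so few libraries they cannot settle it. At a mean of at least 5 TPM no member was tested in HFSC. A planned edgeR fit was not run, because the deposited values are TPM.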
